A study of Mus musculus with 12 samples.

Results

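The Id proteins and E proteins examined here are encoded by Id2, Id3, Tcf12 and Tcf3, and are 4 of the 19057 genes with a symbol on the array. Their measurements were taken as all 10 probes annotated to them, out of 45274 probes with values. Id2 had 3 probes, Id3 had 1, Tcf12 had 4 and Tcf3 had 2. In each comparison below, a probe was tested only if it was detected (detection p under 0.01) on at least 4 of the 12 arrays, which 6 of the 10 probes were. Both Tcf3 probes and the other 2 Tcf12 probes were detected on 0 of 12 arrays, so Tcf3 was not measured above background in any group.

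Gene expression had been measured on Illumina mouse bead arrays in 3 lymphoid populations with 4 arrays each. ITNK cells were induced T-to-natural-killer cells, derived in vitro from DN3 thymocytes that lost the T-lineage transcription factor Bcl11b. DN3 cells were the parental thymocytes, CD4-negative and CD8-negative T cell precursors. LAK cells, lymphokine-activated killers, were a natural killer population grown up in IL-2.

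The labels carry 1 protocol text for all 12 arrays, so which step applied to which group is not settled. That text describes thymocytes or splenocytes from mice with loxP-flanked Bcl11b and Cre-ERT2, a tamoxifen-inducible Cre recombinase. These were given 1 µM 4-hydroxytamoxifen for 48 h in medium with 5 ng/ml Flt3 ligand and 5 ng/ml IL-7. Sorted DN3 cells with a Bcl11b conditional allele on both copies, and others with it on 1 copy, were then grown on OP9-DL1, a stromal line that presents a Notch ligand, with 100 ng/ml IL-2. Collection was 14 days after treatment. For splenic ITNK cells, an expansion in 1000 U/ml IL-2 for 6 to 9 days is described, and no array is labelled splenic. The genotype behind the DN3 and LAK arrays, whether DN3 RNA came from fresh or cultured cells, and the number of animals or cultures behind each group are not given. The p-values therefore measure the spread between these arrays, which may be technical. The strain labels differ between groups in their last digit only, and whether strain truly differed is unknown.

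E proteins are basic helix-loop-helix activators that bind DNA as dimers at short motifs called E-boxes. Id proteins have the helix-loop-helix but lack the basic region that contacts DNA, so a dimer of an Id protein with an E protein cannot bind. In mouse lymphocytes E2A (from Tcf3) and HEB (from Tcf12) drive early T cell genes, Id3 is induced by signals from the pre-T cell receptor and T cell receptor, and Id2 is required for natural killer and innate lymphoid cells.

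The promoters of the 3 measured genes are shown because their products act on the E-box itself. Each is a RefSeq window of GRCm38.p6, from 250 bases before to 50 bases after the annotated start, read 5′ to 3′ on the gene's strand. The motif searched was CANNTG, which reads the same on both strands, and every match is in capitals. The Id2 window is chr12:25096043-25096342 on the minus strand, the Id3 window chr4:136143572-136143871 on the plus strand, and the first of 3 annotated Tcf12 windows chr9:72111770-72112069 on the minus strand.
Id2 promoter: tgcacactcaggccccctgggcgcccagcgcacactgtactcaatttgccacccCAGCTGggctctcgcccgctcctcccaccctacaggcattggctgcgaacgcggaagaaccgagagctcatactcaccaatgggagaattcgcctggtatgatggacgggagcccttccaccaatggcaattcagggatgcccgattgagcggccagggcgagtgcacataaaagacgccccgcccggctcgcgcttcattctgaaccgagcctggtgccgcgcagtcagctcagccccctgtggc
Id3 promoter: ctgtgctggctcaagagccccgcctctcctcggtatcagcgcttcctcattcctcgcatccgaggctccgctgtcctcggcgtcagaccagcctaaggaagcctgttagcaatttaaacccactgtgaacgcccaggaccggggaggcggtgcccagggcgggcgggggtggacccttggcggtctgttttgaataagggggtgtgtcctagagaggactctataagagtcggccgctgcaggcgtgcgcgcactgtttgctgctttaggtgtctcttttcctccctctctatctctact
Tcf12 promoter: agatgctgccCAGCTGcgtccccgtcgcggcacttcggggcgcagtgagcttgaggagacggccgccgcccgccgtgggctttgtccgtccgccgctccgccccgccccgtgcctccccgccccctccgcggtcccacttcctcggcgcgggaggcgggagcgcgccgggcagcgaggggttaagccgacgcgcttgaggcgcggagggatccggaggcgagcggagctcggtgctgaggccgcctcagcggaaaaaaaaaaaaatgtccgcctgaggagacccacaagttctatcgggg

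The Id2 window held 1 match, CAGCTG, 196 bases before the start. The Id3 window held 0 matches, which says only that these letters are not in this window. The Tcf12 window held 1 match, also CAGCTG, 240 bases before the start. Among 32851 mouse promoter windows of the same length, 72.3% held at least 1 CANNTG and 16.3% held CAGCTG, so a match is common and is a description, not a binding site.

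Array quality and cell identity were checked before the members were compared. Arrays of a group correlated at 0.974 to 0.992 over probes. ITNK 1 and 2 shared slide 1 with the 4 LAK arrays, and ITNK 3 and 4 shared slide 2 with the 4 DN3 arrays. The median raw signal of an array lay between 58.9 and 63.3 on slide 2, and between 71.4 and 75.3 on slide 1. The summed normalised signal of 8 T-lineage markers was 21308 to 22227 in DN3, 8517 to 10941 in ITNK and 654 to 950 in LAK. That of 8 natural killer markers was 968 to 1635, 13728 to 15571 and 23349 to 26788 in the same order, with Ncr1 and Gzmb, both defining natural killer genes, detected in no group. For 15 stromal markers the sum was 1945 to 6438 in DN3, 1197 to 1719 in ITNK and 338 to 358 in LAK. Of these, Col1a2, Col3a1, Lum and Postn were not detected in DN3 or ITNK, and in LAK only Col6a2 was detected. The sum over 5 myeloid markers was 130 to 141 in DN3, 118 to 142 in ITNK and 148 to 209 in LAK. Of the 2 tested, Cd14 was 2.93-fold higher in LAK than in DN3, read against background (adjusted p = 1.74e-05, limma). No DN3 or ITNK array detected Cd14, so this call was favoured by the filter. The other tested gene, Csf1r, was lower in LAK and passed. Lyz2, Itgam and Adgre1 were detected in no group. The sum over 3 B-lineage markers was 150 to 188, 116 to 133 and 60 to 64 in the same order. Ms4a1 and Pax5 were detected in no group, so only Cd79b was above background, in DN3 and ITNK. Read against background, Cd79b was 5.45-fold lower in LAK than in DN3 (adjusted p = 6e-10, limma). No LAK array detected Cd79b, so this call too was favoured by the filter. Bcl11b itself had a log2 level of 11.77 ± 0.24 in DN3, 8.59 ± 0.35 in ITNK and 5.76 ± 0.36 in LAK (SD, n = 4). Where its probe lies relative to the deleted stretch is not given, so it does not check the deletion.

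Levels are normalised log2 intensities, and differences are log2 differences between group means. Each gene is represented by its brightest detected probe, which is probe 1 of Id2 and of Tcf12. The tests are moderated limma tests in 1 fit over all 12 arrays, adjusted by the Benjamini-Hochberg method over 8100 genes, or over 13571 probes for the values of single probes. A gene or probe passed at an adjusted p under 0.05. Where no array of the dimmer group detected a gene, its fold is read against background and is not a lower limit. Undetected probes can read above the lowest detected value of their array. On LAK 4 that value was 4.25, and the first Tcf12 probe read 5.13 without being detected. Whether a lower level reflects fewer cells of a type or less RNA per cell cannot be told apart in these bulk samples.

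Id2 was higher in ITNK and in LAK than in DN3, and its level in ITNK was not separable from that in LAK by its brightest probe. In DN3 the log2 levels of that probe were 7.77, 8.27, 8.04 and 7.79. In ITNK they were 10.41, 10.59, 10.61 and 10.86, and in LAK 10.45, 10.91, 10.69 and 10.66. All DN3 arrays lay below all ITNK and LAK arrays, whereas the ITNK and LAK arrays interleaved. The ITNK mean exceeded the DN3 mean by 2.65 (SE 0.14, 95% interval 2.35 to 2.95), a 6.27-fold difference (adjusted p = 5.08e-09, limma). This difference ranked 110 of 8100 genes by size, where 51.7% of genes passed in either direction, 23.5% were higher in ITNK and 47.8% had groups that did not overlap. The LAK mean exceeded the DN3 mean by 2.71, or 6.54-fold (adjusted p = 9.65e-10, limma), in a comparison where 60.5% of genes passed, 28.6% of genes were higher in LAK and 56.4% had groups that did not overlap. Between ITNK and LAK, where 33.7% of genes passed, 15.7% of genes were lower in ITNK and 31.8% had groups that did not overlap, the difference was -0.06 with an interval from -0.36 to 0.24 (adjusted p = 0.776, limma).

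A second Id2 probe put ITNK between the other two groups. Its log2 levels were 5.65, 5.84, 5.21 and 5.42 in DN3, 8.79, 8.79, 8.48 and 8.39 in ITNK, and 9.29, 9.55, 9.64 and 9.36 in LAK. No 2 groups overlapped by this probe, as for 46.0% of all tested probes in ITNK against DN3, 30.3% in ITNK against LAK and 54.9% in LAK against DN3. ITNK was 3.08 above DN3 (8.48-fold, adjusted p = 1.48e-09, limma) and lower than LAK by 1.80-fold (-0.85, interval -1.16 to -0.53, adjusted p = 0.000488, limma). The probes of Id2 therefore differ on whether ITNK reached the LAK level. The difference between ITNK and LAK was 0.79 higher by the first probe than by the second, and an exact 2-sided permutation test over the 8 arrays gave p = 0.0286 (0.0429 adjusted over 6 such probe contrasts, chosen after the values were seen). That p is the smallest 4 arrays against 4 can give. For ITNK against DN3 the contrast between the probes was -0.44 (exact permutation p = 0.171, adjusted 0.205). The position of each probe on the Id2 transcripts was not used here.

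The third Id2 probe was close to background, and was detected on 3 LAK arrays, 1 ITNK array and 0 DN3 arrays. Its levels were 4.21 to 4.36 in DN3, 4.54 to 5.28 in ITNK and 4.63 to 5.39 in LAK. ITNK exceeded DN3 by 1.31-fold, read against background because no DN3 array detected it (adjusted p = 0.0251, limma). The probe met the detection filter through LAK and ITNK arrays only, so this call was favoured by the filter. Without ITNK 4, the only ITNK array on which it was detected, the difference was 0.36 and did not pass (adjusted p = 0.0838, limma), nor did it pass without DN3 3 (0.49, adjusted p = 0.0565). ITNK and LAK differed by -0.33 (interval -0.70 to 0.05), which did not pass (adjusted p = 0.178, limma) but did without LAK 4 (-0.49, adjusted p = 0.0308) or without ITNK 4 (-0.48, adjusted p = 0.038).

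**Figure D1:**
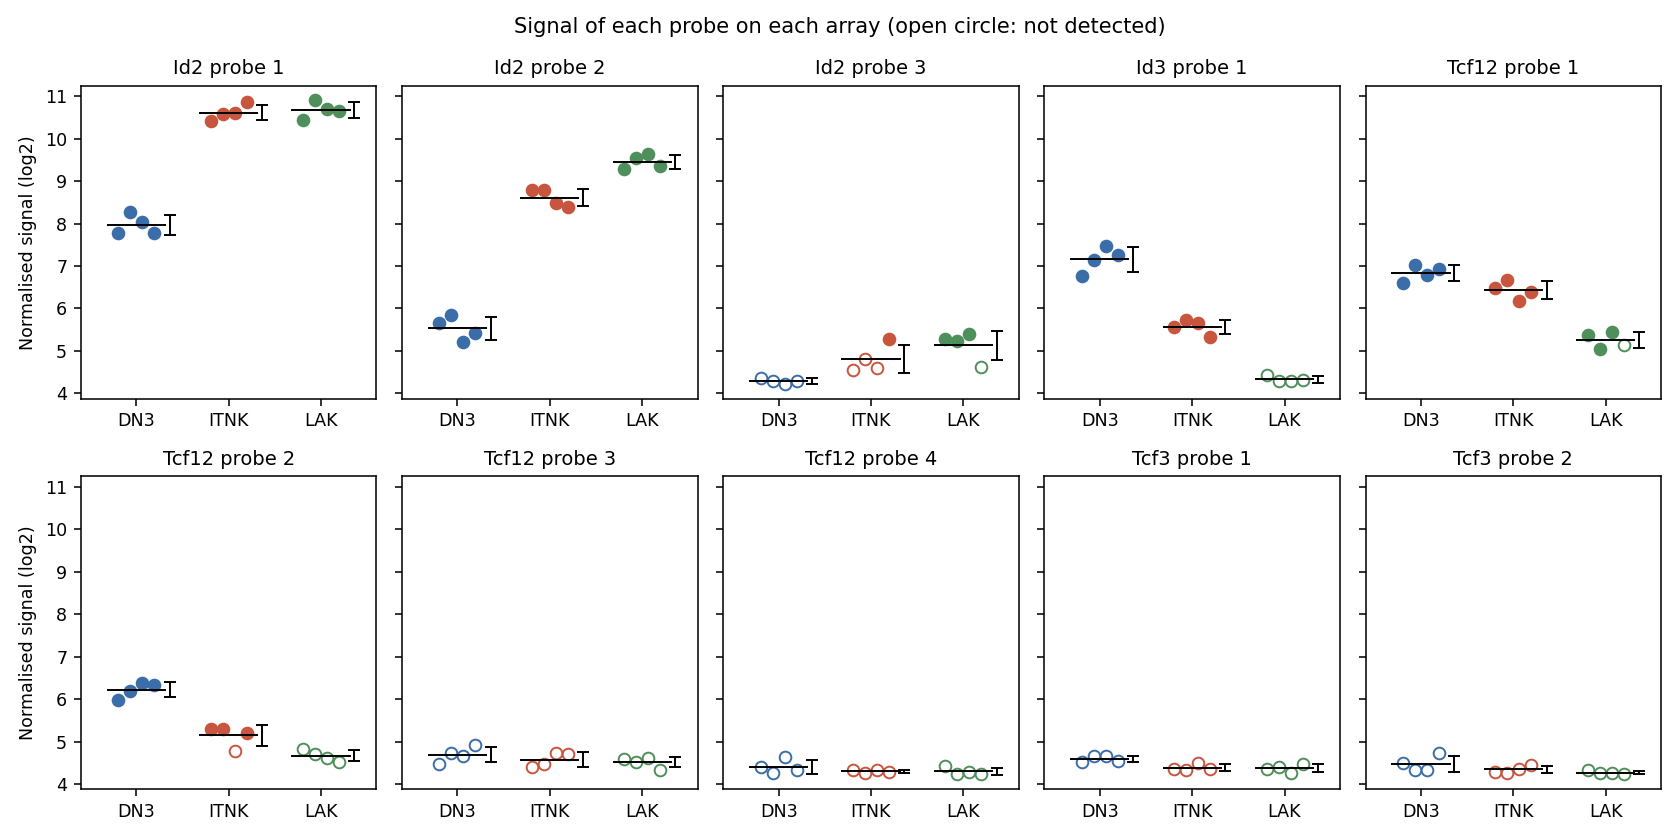
Normalised log2 level of each probe of Id2, Id3, Tcf12 and Tcf3 on the y axis, by group on the x axis, with 1 point per array open where it was not detected, a line at the mean of 4 arrays and a bracket for the SD. The DN3 mean is lowest for Id2 and highest for Id3 and for the first 2 Tcf12 probes, and both Tcf3 probes stay at background in all 3 groups.

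Id3 ran in the opposite order, highest in DN3, intermediate in ITNK and not detected in LAK. Its single probe read 6.77, 7.14, 7.47 and 7.27 in DN3 and 5.57, 5.72, 5.65 and 5.32 in ITNK. The LAK values of 4.44, 4.28, 4.29 and 4.31 were not above background on any array. The DN3, ITNK and LAK arrays did not overlap. Of all tested genes, 47.8% also had no overlap in ITNK against DN3, 31.8% in ITNK against LAK and 56.4% in LAK against DN3. All 8 DN3 and ITNK arrays detected the probe. Since the probe passed the detection filter through these arrays only, a difference from LAK was favoured by the filter.

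The ITNK mean of Id3 differed from the DN3 mean by -1.60 (SE 0.14, interval -1.89 to -1.30), or 3.03-fold lower (adjusted p = 5.36e-07, limma). It ranked 421 of 8100 genes by size, with 28.2% of genes lower in ITNK. Against the background reading in LAK, ITNK was 2.28-fold higher (adjusted p = 9.01e-06, limma), where 18.0% of genes were higher. LAK, read at background, was 6.90-fold lower than DN3 (adjusted p = 5.84e-10, limma), where 31.9% of genes were lower. These sizes, those against background included, hold for this background correction. Without background correction ITNK differed from DN3 by -1.0 and from LAK by 0.67, and LAK from DN3 by -1.67. In the authors' values these differences were -0.95, 0.65 and -1.60, and all of them passed. The DN3 array with the lowest stromal marker sum, DN3 2, had an Id3 level of 7.14, and the one with the highest, DN3 1, had the lowest Id3 level of the group, 6.77. The part of stromal RNA in the Id3 values was not tested.

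The 2 Id genes thus changed in opposite directions between the same arrays, which the difference of their levels within each array measures. Since the levels of different probes cannot be set against each other, only the shift of this difference between groups is read. Id2 minus Id3 was 1.00, 1.13, 0.57 and 0.53 in DN3 and 4.84, 4.87, 4.96 and 5.54 in ITNK. In LAK it was 6.01, 6.63, 6.40 and 6.34, each a reading against background because Id3 was not detected there. No 2 groups overlapped. The shift from DN3 to ITNK was 4.25, with an exact 2-sided permutation p of 0.0286, also 0.0286 adjusted over 3 comparisons, the smallest that 4 against 4 arrays allow. Id2 and Id3 each already separated DN3 from ITNK, in opposite directions. This p was therefore fixed by those values and adds no support to them. Without background correction it was 3.43. The other 2 comparisons set arrays against LAK values in which Id3 is at background. Their shifts of -1.30 (LAK to ITNK) and 5.54 (DN3 to LAK) are therefore readings against background and not sizes of change. The same exact permutation p of 0.0286 applies to these readings, and for DN3 to LAK it was fixed in the same way.

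**Figure D2:**
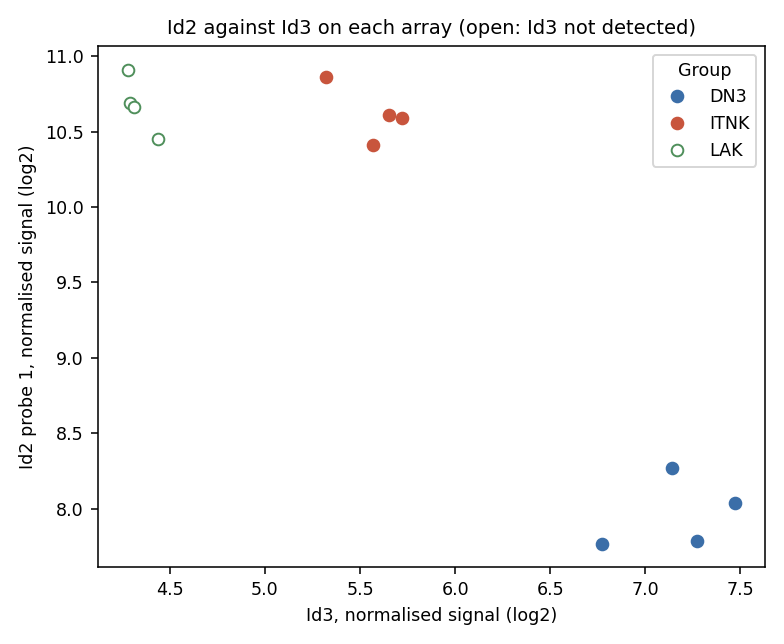
Id2 level (y axis, brightest probe) against Id3 level (x axis), both in normalised log2 units, with 1 point for each of the 12 arrays and open points where Id3 was not detected. The DN3 arrays lie at low Id2 and high Id3, the ITNK and LAK arrays share their range of Id2, and the LAK arrays sit at background for Id3.

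The family's other members gave less. Id1, an Id gene with wide expression outside lymphocytes, had a log2 level of 5.12 ± 0.41 in DN3, 5.48 ± 0.16 in ITNK and 4.50 ± 0.15 in LAK (SD, n = 4), and was not detected in LAK. Read against background, it was 1.96-fold higher in ITNK than in LAK (adjusted p = 0.000552, limma), and 1.54-fold lower in LAK than in DN3 (adjusted p = 0.00641, limma). Both calls were favoured by the filter. ITNK and DN3 differed by 0.35 (SE 0.17, interval -0.01 to 0.72), which did not pass (adjusted p = 0.0998, limma). Id4 was not tested, since neither of its probes met the detection filter.

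Tcf12, which encodes HEB, was highest in DN3 and lowest in LAK by both of its detected probes, and these differed on the distance of ITNK from the other two. The first probe read 6.61, 7.02, 6.79 and 6.93 in DN3, 6.49, 6.68, 6.18 and 6.38 in ITNK, and 5.38, 5.05, 5.45 and 5.13 in LAK. The DN3 and ITNK arrays overlapped, and all of them lay above the LAK arrays, of which LAK 4 did not detect the probe. Of all tested genes, 31.8% had no overlap in ITNK against LAK and 56.4% in LAK against DN3. ITNK was 1.18 above LAK (2.27-fold, adjusted p = 1.05e-05, limma), and LAK was 3.00-fold lower than DN3 (-1.59, adjusted p = 1.74e-07, limma). Without background correction these differences were 0.64 and -0.91, and both passed.

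Between ITNK and DN3 the first Tcf12 probe differed by -0.41 (SE 0.13, interval -0.69 to -0.12), or 1.33-fold (adjusted p = 0.0204, limma). Its size ranked 3589 of 8100 genes. The call depended on single arrays: the adjusted p was 0.0665 without ITNK 3, 0.0643 without DN3 2 and 0.056 without DN3 4, with differences of -0.32, -0.34 and -0.37. With arrays scaled by their medians the difference was -0.18 (adjusted p = 0.36), and in the authors' processed values -0.21 (adjusted p = 0.054). Within slide 2 it was -0.56 (adjusted p = 0.0134, limma).

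The second Tcf12 probe read 5.98, 6.18, 6.37 and 6.34 in DN3, 5.30, 5.30, 4.77 and 5.21 in ITNK, and 4.82, 4.71, 4.61 and 4.52 in LAK. It was detected on all DN3 arrays, on every ITNK array but ITNK 3, and on no LAK array. Here DN3 stood apart from both other groups, and the ITNK and LAK arrays overlapped through ITNK 3. Of all tested probes, 46.0% had no overlap in ITNK against DN3 and 54.9% in LAK against DN3. ITNK was 2.10-fold lower than DN3 (-1.07, SE 0.14, adjusted p = 1.63e-05, limma) and 1.40-fold higher than the background reading in LAK (adjusted p = 0.0137, limma). That LAK reading was 2.94-fold lower than DN3 (adjusted p = 2.01e-07, limma). The probe met the detection filter through DN3 and ITNK arrays only, so both calls that involve LAK were favoured by the filter. The change from DN3 to ITNK differed between the 2 probes by 0.66 and that from LAK to ITNK by 0.70, each with an exact permutation p of 0.0286 (adjusted 0.0429). The change from DN3 to LAK did not separate them (-0.03, exact permutation p = 0.714).

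The remaining Tcf12 probes stayed between 4.24 and 4.92 on the 12 arrays and were not above background on any. Tcf3, which encodes the E2A proteins, was equally without a measurement: its probes lay between 4.27 and 4.66 and between 4.24 and 4.73. The lowest level of a detected probe ranged from 4.24 to 4.51 over the arrays, which is not a detection limit, since undetected probes also read above it. No difference in Tcf3 was detectable by these probes, and the data do not show that the gene is off.

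**Figure D3:**
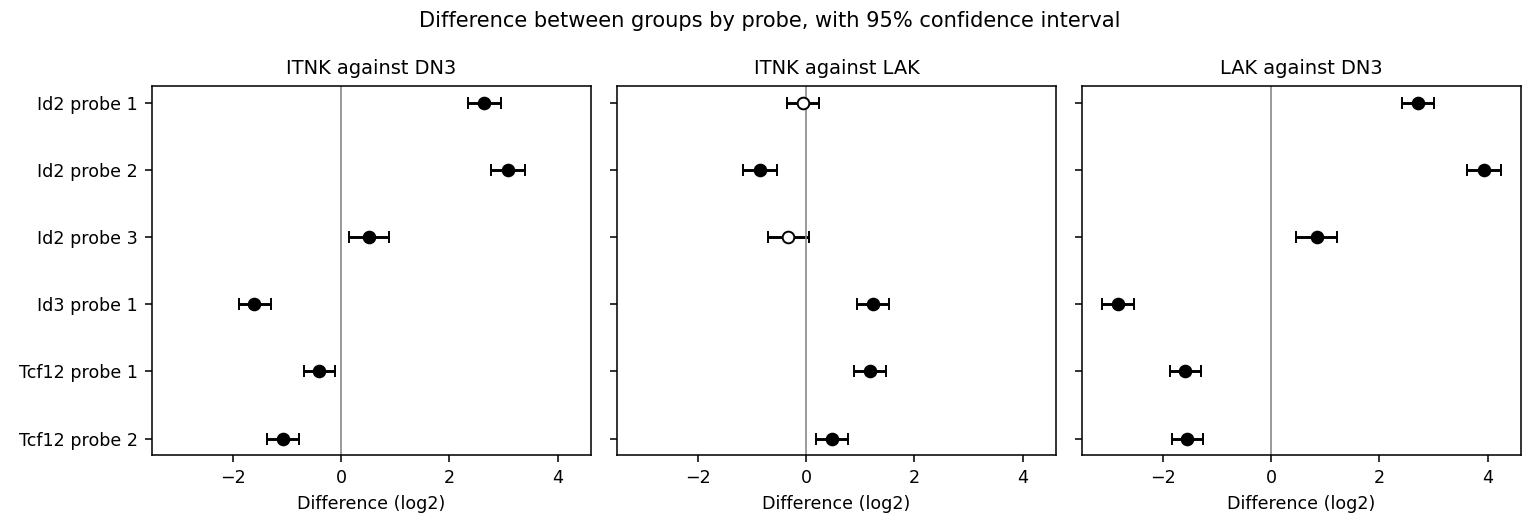
Log2 difference (x axis) of each detected probe of Id2, Id3 and Tcf12 in the 3 comparisons, with bars for the 95% interval of the limma fit and filled points for those that passed. Id2 probes lie above 0 against DN3 and Id3 and Tcf12 probes below it, and the first and second probes of Id2 and of Tcf12 separate in ITNK against LAK.

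Across the 6 detected probes, 6 passed in ITNK against DN3, beside 49.7% of all 13571 tested probes. In ITNK against LAK 4 of 6 passed, beside 31.7% of all, and in LAK against DN3, 6 of 6 passed, beside 59.6%. Several of these probes passed the detection filter only through the group where they were bright, so the counts are a description.

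The place of ITNK on the way from DN3 (0%) to LAK (100%) differed between the members. Id2 averaged 97.8% by its first probe, with single ITNK arrays from 90.1% to 107%, and 78.4% by its second, from 72.8% to 82.9%. Id3 averaged 56.4%, from 50.8% to 65.0%; its LAK end was not detected. Tcf12 averaged 25.6% by its first probe, from 10.2% to 41.5%, and 68.9% by its second, from 58.7% to 93.2%. The LAK end of the second Tcf12 probe was not detected either, so for it and for Id3 these are places between DN3 and the background reading in LAK.

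The comparisons with ITNK were also made within a slide. Within slide 2, where ITNK 3 and 4 stood beside all DN3 arrays, Id2 differed by 2.76 (adjusted p = 1.09e-05, limma) and Id3 by -1.68 (adjusted p = 0.000265, limma). Within slide 1, where ITNK 1 and 2 stood beside all LAK arrays, the differences from LAK were -0.18 for Id2 (adjusted p = 0.474, limma), 1.32 for Id3 (adjusted p = 0.000148, limma) and 1.33 for Tcf12 (adjusted p = 0.000538, limma). The second Id2 probe differed there by -0.67 (adjusted p = 0.0116, limma). The second Tcf12 probe differed by -1.23 from DN3 within slide 2 (adjusted p = 0.000577, limma). No slide held both LAK and DN3, so that comparison has no value within a slide.

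Genes with the most similar pattern over the 12 arrays were found by Pearson correlation among 8099 other genes, as a description only, since the arrays fall into 3 groups and any gene with the same order of groups scores high. For Id2 they were Fcer1g (r = 0.996), Tent5a (0.993) and Zcchc18 (0.992). Fcer1g, the Fc receptor gamma chain used by natural killer receptors, had mean log2 levels of 6.20, 12.14 and 12.56 in DN3, ITNK and LAK. For Id3 they were Abca3 (0.993), Slc43a1 (0.991) and Rapgef3 (0.990). For Tcf12 they were Cd3d (0.984), Slc6a19 (0.981) and Trbv13-1 (0.981). Cd3d, a chain of the CD3 complex, had means of 13.14, 11.88 and 8.05. In all, 202 genes correlated above 0.95 with Id2, 253 with Id3 and 97 with Tcf12.

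Of 14 partners and cofactors of E proteins, 6 were tested, and none of the dedicated helix-loop-helix partners Tal1, Tal2, Lyl1, Msc and Ascl2 met the detection filter. In ITNK against DN3, 0 were higher, 3 were lower and 3 did not pass, with a median difference of -0.48 beside -0.04 over all genes, of which 28.2% were lower. With median scaling 1 of the 6 was lower. The 3 lower genes were Ldb1 (-0.86, adjusted p = 1.78e-05), a bridging factor for LIM proteins, the LIM-only adaptor Lmo4 (-0.83, adjusted p = 9.36e-06) and the corepressor Cbfa2t2 (-0.40, adjusted p = 0.0274). With the slide as a block Cbfa2t2 did not pass (-0.43, adjusted p = 0.0603). Nor did it pass with median scaling (-0.31, adjusted p = 0.117), in the authors' values (-0.16, adjusted p = 0.0835) or without background correction (-0.18, adjusted p = 0.0644). With the replicate number as a block it kept its call. In LAK against DN3, where 31.9% of all genes were lower, all 6 tested were lower, with Cbfa2t3, a corepressor that E proteins recruit, at -2.57 (adjusted p = 4.16e-05, limma). No LAK array detected Cbfa2t2, so its call there was favoured by the filter. With median scaling 3 of the 6 were lower, and with the slide as a block 5, since Crebbp, an acetyltransferase, did not pass (-0.69, adjusted p = 0.0954). In ITNK against LAK, where 18.0% of all genes were higher, 2 were higher, Cbfa2t3 by 2.02 (adjusted p = 0.000853) and the acetyltransferase Ep300 by 0.43 (adjusted p = 0.00454), and 4 did not pass.

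Of 12 genes that E proteins are known to activate in lymphoid precursors, 6 were tested. In ITNK against DN3 all 6 tested were lower, where 28.2% of all genes were lower, with a median of -1.42 beside -0.04 over all genes. With median scaling, with the slide as a block and in the authors' values 5 of the 6 were lower. Dntt, the polymerase that adds untemplated bases at receptor joints, differed by -1.68 (adjusted p = 5.2e-05), the receptor Notch1 by -1.45 (adjusted p = 6.98e-07) and the chemokine receptor Cxcr4 by -1.42 (adjusted p = 8.23e-06). Ptcra, which encodes the partner of the beta chain in the pre-T cell receptor, was lower by 2.64-fold, read against background (adjusted p = 2.17e-07). It was detected on DN3 arrays only, so the filter kept it through the group where it is high, and its call was favoured by the filter. Foxo1, the smallest of them, differed by -0.35 (adjusted p = 0.0239) and did not pass with the slide as a block (-0.34, adjusted p = 0.086). The other 6 listed genes were not tested. Ptcra and Rag1 also stand among the T-lineage markers, whose summed signal was likewise lower in ITNK, and the part of cell identity in these values was not tested.

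The same list sat above LAK in ITNK for 4 of its 6 tested genes, where 18.0% of all genes were higher, with a median of 0.92 beside -0.01 over all genes. Read against background, Dntt was 6.26-fold higher, Cxcr4 3.60-fold and Rag1, which encodes a subunit of the V(D)J recombinase, 2.23-fold. No LAK array detected Dntt, Cxcr4 or Rag1, so these calls were favoured by the filter. Notch1 was 0.68 higher (adjusted p = 0.000923, limma). Ptcra was detected in neither group and has no fold. In LAK against DN3, where 31.9% of all genes were lower, 5 of 6 were lower, with a median of -2.20 beside -0.02 over all genes. Dntt was lower by 20.0-fold, read against background. There too the filter favoured the calls of Dntt, Cxcr4, Rag1 and Ptcra, which no LAK array detected.

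Of 11 transcription factors that act beside Id2 in natural killer and innate lymphoid development, 7 were tested. In ITNK against DN3, 3 were higher, 2 were lower and 2 did not pass, with a median of 0.36 beside -0.04 over all genes. Of all genes, 23.5% were higher and 28.2% were lower. Hhex, a homeobox factor, was higher by 5.66-fold (adjusted p = 1.12e-08, limma). The T-box factors of natural killer maturation, Eomes and Tbx21, were so by 2.57-fold and 2.00-fold. No DN3 array detected Hhex, Eomes or Tbx21, so these folds are read against background. Their calls against DN3 were favoured by the filter, which kept them through the groups where they are high. Ets1 differed by -1.88 (adjusted p = 1.75e-07) and Gata3 by -0.79 (adjusted p = 0.00016). Against LAK, the ITNK difference was -1.63 for Tbx21, -1.31 for Eomes and -1.03 for Hhex, and 1.62 for Tox, an HMG-box factor. In all, 2 genes were higher than in LAK, 4 were lower and 1 did not pass, beside 18.0% of all genes higher and 15.7% lower. In LAK against DN3, 4 were higher and 3 were lower, beside 28.6% of all genes higher and 31.9% lower. With the slide as a block 3 were higher, since Zeb2, a zinc finger repressor, did not pass (0.52, adjusted p = 0.159). Nor did Zeb2 pass in the authors' values (0.16, adjusted p = 0.104) or without background correction (0.18, adjusted p = 0.0651). The same held without the detection filter (adjusted p = 0.0626), with the replicate number as a block (adjusted p = 0.06) and with several single arrays left out. With median scaling Zeb2 kept its call. Read against background in DN3, Hhex was higher by 11.5-fold in LAK, Eomes by 6.37-fold and Tbx21 by 6.20-fold, with calls again favoured by the filter.

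Signalling genes that act upstream of Id transcription were mixed. Of 11 listed, 10 were tested, and in ITNK against DN3, 3 were higher, 3 were lower and 4 did not pass, with a median of -0.06. Both counts lie near the shares over all genes, 23.5% higher and 28.2% lower. With median scaling 4 were higher and 0 were lower. The zinc finger factors Egr2 and Egr3, which act between the T cell receptor and Id3 in thymocytes, were both higher in ITNK while Id3 was lower. Egr2 was so by 3.22-fold, read against background (adjusted p = 7.43e-05), and Egr3 by 2.13 (SE 0.33, adjusted p = 9.73e-05). No DN3 array detected Egr2, so its call was favoured by the filter. Neither Egr gene passed in ITNK against LAK (differences of 0.16 and -0.20). The TGF-beta receptor gene Tgfbr2 was 0.78 higher in ITNK than in DN3 (adjusted p = 7.42e-05). Smad5, a transducer of BMP signals, differed by -0.53 (adjusted p = 0.0102), and by -0.34 with median scaling, which did not pass (adjusted p = 0.127). In ITNK against LAK 3 were higher, 1 was lower and 6 did not pass, beside 18.0% of all genes higher and 15.7% lower. The 3 included Smad5 (0.43, adjusted p = 0.0446), which did not pass with the replicate number as a block (adjusted p = 0.0532), with median scaling (adjusted p = 0.104) or in the authors' values (adjusted p = 0.0521). Nor did Smad5 pass without background correction (adjusted p = 0.0689), with another background correction (adjusted p = 0.069) or without the detection filter (adjusted p = 0.084). It also did not pass with most single arrays left out, as without ITNK 1 (0.32, adjusted p = 0.132). It kept its call with the slide as a block and within slide 1. Smad3, which carries TGF-beta signals, was 1.70 higher than in LAK (adjusted p = 7.1e-06). In LAK against DN3, 4 were higher, 3 were lower and 3 did not pass, with Egr3 at 2.33 and Smad3 at -1.99. Of all genes, 28.6% were higher there and 31.9% were lower.

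**Figure D4:**
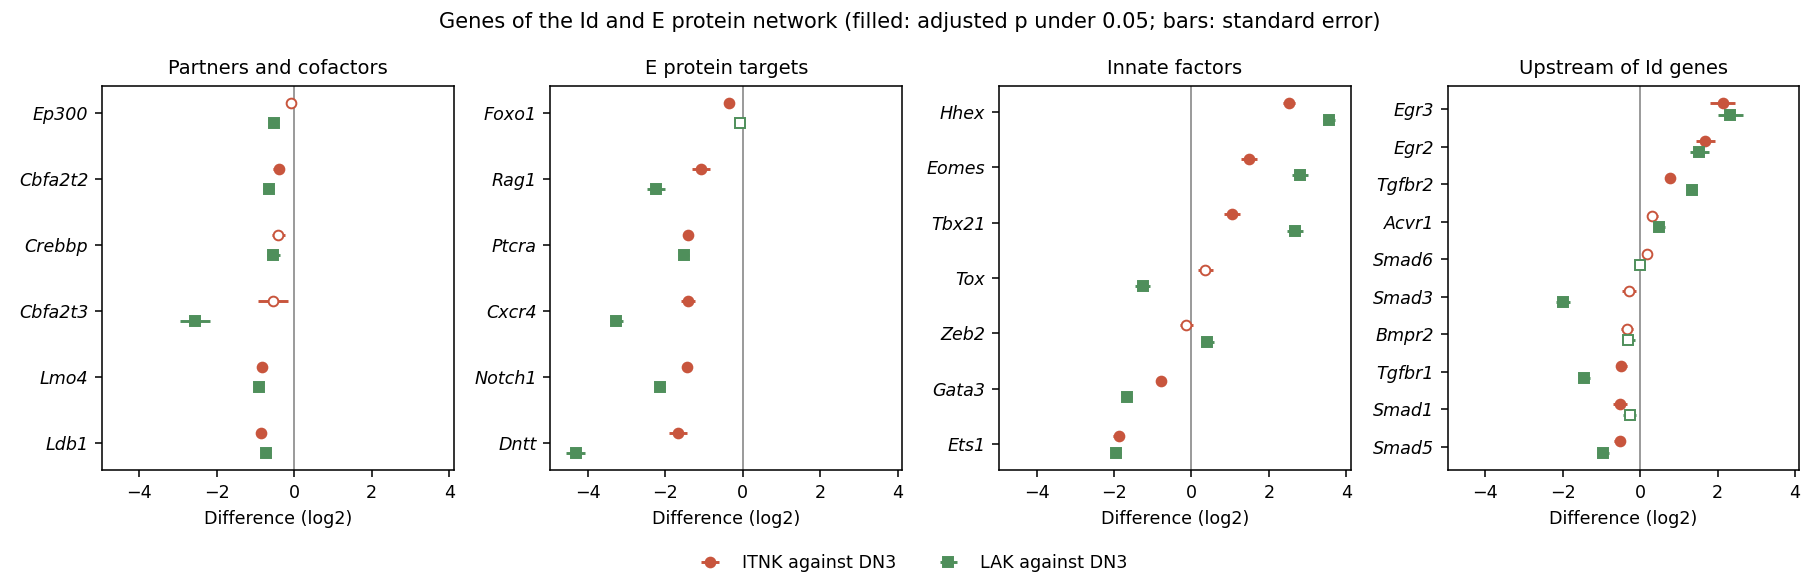
Log2 difference (x axis) of each tested gene in 4 lists around the Id and E proteins, with 1 panel per list, circles for ITNK against DN3, squares for LAK against DN3, bars for the standard error and filled points for genes that passed at an adjusted p under 0.05. The tested E protein targets lie below 0 in both comparisons against DN3, and the innate factors lie on both sides of 0.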

How the data were processed

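Gene expression was measured in 12 arrays, 4 each of ITNK, DN3 and LAK cells, grouped by their labels. Per the file headers, the authors deposited the mean bead intensity of each probe, not normalised and on a linear scale, with a detection value, a fraction from 0 to 1 for which 1 minus the value is the detection p. The authors also deposited processed values on a log2 scale, whose method is not given in the sources used here, and these served as an alternative.

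The intensities were background-corrected from the detection values with an offset of 16, quantile normalised and log2-transformed (neqc, limma 3.58.1, R 4.3.3). Of 45281 probes 7 held no values. Probes with a detection p under 0.01 on at least 4 arrays were kept, which left 13571, of which 1804 had no single symbol. The brightest probe stood for each of 8100 genes. Symbols came from the platform annotation. The number of arrays limits the precision.

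The 3 groups were compared in 1 limma fit, adjusted over all genes or all probes tested. Where no array of the dimmer group detected a gene, its fold is read against background: the bright mean against, per array, the lowest detected value or the gene's own if higher. That lowest value is not a detection limit, so these folds are not lower limits. Id2 minus Id3 and the contrasts between probes were compared by exact 2-sided permutation tests. The code was tested on simulated data. The alternatives were other background corrections and scalings, the authors' values, other probes and detection filters, slide and replicate number as blocks, and each array left out.

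The members and gene lists were chosen with earlier results of these data known. Named were all member probes, Id1, Id4 and Bcl11b, of each list up to 4 genes with the largest difference among those that passed in a comparison, and the 3 genes most correlated with each member. A few others, among them Foxo1, Rag1, Zeb2, Crebbp, Cd14, Cd79b and the untested list members, were added after their values were seen. Comparisons share arrays: ITNK against DN3 and ITNK against LAK share the ITNK arrays.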

Additional observations from a re-analysis of the deposited data

Results flagged for a closer look

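3 values stood apart from the other arrays of their group, in 33 groups of 4 values that were tested, where chance alone sets apart about 1 in 20 groups. The second Tcf12 probe read 4.77 on ITNK 3 against 5.21 to 5.30 on the other ITNK arrays, and was not detected on ITNK 3. Leaving out any single array kept the second Tcf12 probe past the threshold in all 3 comparisons, with ITNK against DN3 between -1.15 and -0.95.

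The first Tcf3 probe read 4.50 on ITNK 3 against 4.33 to 4.35 on the others, all below the detection threshold. Id2 minus Id3 was 5.54 on ITNK 4 against 4.84 to 4.96 on the others, the array with both the highest Id2 and the lowest Id3 of the ITNK group.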

How the results depend on the processing

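Across the member results and the counts of calls over all genes, 165 of 168 values with an array left out were unchanged. So were 114 of 121 values under other settings, and 0 reversed. A member result was unchanged if it kept its direction and its side of the threshold. Values with an array left out used the brightest probe of each gene. The third Id2 probe was not among them. It passed in 10 of 12 such fits in ITNK against DN3 and in 2 of 12 in ITNK against LAK. The exceptions among the counted values were these. Tcf12 in ITNK against DN3 did not pass with median scaling (-0.18, adjusted p = 0.36) or in the authors' values (-0.21, adjusted p = 0.054), nor without ITNK 3, DN3 2 or DN3 4, and ranged from -0.49 to -0.32 with an array left out. Median scaling moved the median of all genes to 0.19 in that comparison, so relative to it Tcf12 stood at -0.37, and to 0.24 in LAK against DN3. Id2 in ITNK against LAK passed by its second probe (-0.85, adjusted p = 0.000488). Id2 minus Id3 in ITNK against LAK was -0.68 in the authors' values (exact permutation p = 0.0571). Within slides it was 4.44 against DN3 and -1.49 against LAK, each with p = 0.0667, the smallest exact p that 2 against 4 arrays allow. Limiting the genes to probes detected on all 12 arrays left 1787 calls in ITNK against LAK in place of 2727, with fewer genes tested.

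Replicate numbers are shared between groups but did not pair the arrays, since the correlations of same-numbered deviations ran from -0.339 to 0.209. With the replicate number as a block the counts of calls were 4024, 2558 and 4771, Tcf12 in ITNK against DN3 had an adjusted p of 0.0404, and no member call changed. Of 1818 values for 30 listed genes, 59 lost their call, 19 gained one and 0 reversed. Id1 in ITNK against DN3 passed with median scaling (0.45, adjusted p = 0.0354), and Cbfa2t3 passed there without DN3 1 (-0.94, adjusted p = 0.0234). Ldb1 in ITNK against DN3 did not pass with median scaling (-0.38, adjusted p = 0.101). Signal near background limits Tcf3, the third Id2 probe, Id3 in LAK and the second Tcf12 probe in LAK.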
